A study of Mus musculus with 12 samples.

Results

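Complement and coagulation factors are plasma proteins made mostly by hepatocytes, and their transcripts were followed in mouse livers after a drug that makes hepatocytes divide, with and without hepatocyte YAP. The set was chosen as 39 named genes, from the clotting factors and fibrinogen to their inhibitors, plasminogen and the complement proteins. A gene was measured by the probe sets that the array annotation gives to its symbol alone, and represented by the one with the highest mean log2 signal over the 12 arrays. On this basis 37 of the 39 were measured, and all 37 were among the 14102 genes tested. Cpb2 and C3 are not analysed here.

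All mice were female, aged 8 to 12 weeks, and carried YAP fl/fl alleles, the control mice too. Knockout mice (KO) received AAV8 with Cre under the TBG promoter, which is active in hepatocytes, and the other liver cells keep the gene. Control mice (WT) received AAV8 with GFP under the same promoter. TCPOBOP, which activates the constitutive androstane receptor (CAR) of hepatocytes, was given by gavage in corn oil at 3 mg/kg, 10 days after the virus. Livers were taken at day 0, from mice that had received the virus and no TCPOBOP or oil, and at day 1 and day 2. KO livers gave 2 arrays at day 0, 1 at day 1, hybridised with pooled RNA, and 3 at day 2, and WT livers gave the same numbers. How many animals a pool holds, and whether the other arrays are 1 animal each, is not given in the sources used here, so a p value measures the spread between these arrays, which may be technical. No group was sampled after day 0 without TCPOBOP, so drug, gavage and elapsed time cannot be told apart.

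As background, clotting proceeds through a chain of zymogens, each cut into an active protease by the one before it, with factors V and VIII as cofactors, until thrombin cuts fibrinogen into fibrin. Antithrombin and the protein C pathway limit the chain, and plasmin, made from plasminogen, dissolves the clot. Complement is a second protease chain. It starts on antibodies (classical pathway), on sugars bound by mannose-binding lectins (lectin pathway) or on surfaces directly (alternative pathway), and ends when C5 to C9 form a pore in a membrane. In the liver, most of these genes depend on transcription factors that keep hepatocytes differentiated, such as HNF1, HNF4 and C/EBP, and several answer to interleukin 6 through STAT3.

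The deposited signals had array medians between 231.6 and 277 units, but the arrays differed at the bright end, where many of these genes lie. The highest signal of an array was 48217 to 67457 on KO day 2 and 88576 to 102372 on KO day 0. It was 103216 to 116918 on WT day 2 and 71165 to 73119 on WT day 0. The cre transcript spiked in as a control moved with this range. KO livers also received the Cre virus, and its part in these readings was not tested. The CreX probe sets read 11301 to 14874 on KO day 2 and 23896 to 26637 on KO day 0. They read 29274 to 30398 on WT day 2 and 17491 to 18773 on WT day 0. Values are therefore on the deposited scale unless quantile normalization, which gives every array the same set of values, is named. Counts of calls are given on both scales, and so are the members whose call differs between them. The KO day 0 arrays were the pair least alike (r = 0.904 across genes, against 0.918 to 0.943 for the other replicate pairs). Replicate 1 of that pair was the brighter for many members, among them C9, the C8 chains, Cfi, Serping1, F9, Hrg and Vtn. Replicate 2 was the brighter for others, among them F11, F12, Hgfac, Fga, Mbl2 and C4bp. Yap1, by its brighter probe set, read 571.5, 539.0 and 796.7 on KO day 2, 449.6 in the KO day 1 pool and 631.5 and 595.7 on KO day 0. The same probe set read 1239.9, 1059.6 and 1306 on WT day 2, 999.2 in the WT day 1 pool and 1234 and 1293 on WT day 0, above every KO array. By limma its log2 difference, KO minus WT, was called at day 2 (-0.92, adjusted p 0.00844) and not at day 0 (-1.02, adjusted p 0.0914). The dimmer probe set did not separate the genotypes. It read 57.8 to 125.7 on KO arrays, 389.3 and 82.9 on WT day 0, 23.1 in the WT day 1 pool and 263.1, 252 and 193.2 on WT day 2.

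The 7 measured hepatocyte markers, Alb and Ttr among them, summed to 226908 to 286208 on KO day 2 and 418853 to 483106 on KO day 0, and to 385724 to 447290 on WT day 2 and 352987 to 359734 on WT day 0. All 7 were called lower in KO at day 2 as deposited and 4 after quantile normalization. In WT 2 were called higher and 1 lower as deposited, and 0 higher and 4 lower after it. In bulk liver, fewer hepatocytes and less RNA per hepatocyte cannot be told apart. Of 48 tested markers of 8 other cell types, 1 was called higher and 5 lower in KO at day 2, 0 and 5 in WT, and 1 and 1 between the genotypes at day 2, with 1 and 5, 0 and 6, and 1 and 1 after quantile normalization. Of all genes tested, 4.2% and 4.49%, 7.26% and 5.38%, and 3.99% and 5.23% were called in these comparisons as deposited. After quantile normalization the shares were 4.74% and 4.54%, 6.74% and 5.94%, and 3.52% and 3.86%. Kupffer cell markers summed to 10634 to 14523 on KO day 2 and 13879 to 13954 on KO day 0, against 13314 to 14628 on WT day 2 and 15906 to 16094 on WT day 0. Markers of sinusoidal endothelial cells, the source of factor VIII, summed to 10451 to 12471 on KO day 2 and 11075 to 13652 on KO day 0, against 9154 to 10198 on WT day 2 and 11803 to 12043 on WT day 0. The part of these sums in the results below was not tested.

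Promoters are shown for 6 members: the 3 fibrinogen chains, which had similar differences from day 0 to day 2 in each genotype, Mbl2, Mbl1 and C9. Of the mannose-binding lectin genes, Mbl2 differed between the genotypes at day 2, while Mbl1 fell in both. C9 fell furthest. The promoters run from 250 bases before to 50 bases after the start site in RefSeq's annotation of GRCm38.p6. Of the 37 members, 30 matched there. Capitals mark the letters searched on both strands: the HNF1 half-site GTTAAT, the C/EBP motif TTGCNNAA, the STAT motif TTCNNNGAA and the nuclear receptor half-site AGGTCA.
Mbl2 (chr19:30232678-30232977, plus strand): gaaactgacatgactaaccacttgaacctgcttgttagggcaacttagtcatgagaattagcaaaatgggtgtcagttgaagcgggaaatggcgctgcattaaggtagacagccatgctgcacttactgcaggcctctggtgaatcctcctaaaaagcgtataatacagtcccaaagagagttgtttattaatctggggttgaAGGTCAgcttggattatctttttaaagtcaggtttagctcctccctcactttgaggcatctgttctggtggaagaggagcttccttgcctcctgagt
Mbl1 (chr14:41151206-41151505, plus strand): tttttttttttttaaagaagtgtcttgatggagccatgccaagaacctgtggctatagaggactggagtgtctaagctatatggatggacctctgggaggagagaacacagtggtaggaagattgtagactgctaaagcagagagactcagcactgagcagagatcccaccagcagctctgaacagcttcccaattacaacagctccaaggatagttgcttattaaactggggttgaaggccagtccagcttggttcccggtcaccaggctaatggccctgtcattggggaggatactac
C9 (chr15:6445096-6445395, plus strand): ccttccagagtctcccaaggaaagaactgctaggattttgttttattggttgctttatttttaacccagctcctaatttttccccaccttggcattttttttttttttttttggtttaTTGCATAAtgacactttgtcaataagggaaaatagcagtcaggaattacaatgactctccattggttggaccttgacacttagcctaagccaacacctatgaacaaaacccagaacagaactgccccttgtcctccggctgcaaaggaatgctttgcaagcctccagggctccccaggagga
Fgg (chr3:83007474-83007773, plus strand): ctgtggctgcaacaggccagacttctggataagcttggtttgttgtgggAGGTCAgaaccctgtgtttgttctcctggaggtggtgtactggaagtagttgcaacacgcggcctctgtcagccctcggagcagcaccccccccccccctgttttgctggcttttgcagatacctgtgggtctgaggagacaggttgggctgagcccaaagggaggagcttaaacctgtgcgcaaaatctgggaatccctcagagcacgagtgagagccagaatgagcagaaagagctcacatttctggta
Fga (chr3:83025903-83026202, plus strand): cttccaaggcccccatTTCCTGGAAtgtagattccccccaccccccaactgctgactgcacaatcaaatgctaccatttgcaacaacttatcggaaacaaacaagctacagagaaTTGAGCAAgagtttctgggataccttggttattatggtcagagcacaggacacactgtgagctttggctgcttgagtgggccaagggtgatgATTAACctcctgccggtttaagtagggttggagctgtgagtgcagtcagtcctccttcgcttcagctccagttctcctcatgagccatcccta
Fgb (chr3:83049814-83050113, minus strand): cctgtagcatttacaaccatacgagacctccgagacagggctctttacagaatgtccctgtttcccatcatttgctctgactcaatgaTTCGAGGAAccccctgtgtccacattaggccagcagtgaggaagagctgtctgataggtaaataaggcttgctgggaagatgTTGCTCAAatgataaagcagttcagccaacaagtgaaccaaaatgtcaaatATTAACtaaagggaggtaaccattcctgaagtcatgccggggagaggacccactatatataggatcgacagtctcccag

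The Fga and Fgb windows held the same 3 kinds of match. In Fga these were a STAT match beginning at position -234 from the start site, a C/EBP match at -135 and an HNF1 half-site at -43, and in Fgb they lay at -162, -80 and -29. The Fgg window held none of these 3 and 1 nuclear receptor half-site, at -201. The Mbl2 window held 1 nuclear receptor half-site, at -47, the C9 window 1 C/EBP match at -132, and the Mbl1 window no match of the 4. Over the 30 windows, 11 (36.7%) held an HNF1 half-site, against 7.1% of all 32851 RefSeq windows of that length. The C/EBP motif was in 8 (26.7%) against 10.8%, the STAT motif in 8 (26.7%) against 8.3%, and the nuclear receptor half-site in 12 (40%) against 16.3%. The motif GGAATG of TEAD, the DNA-binding partner of YAP, was in 8 (26.7%) against 14.7%, and in Fga and Vtn it overlapped the STAT match. The stricter STAT3 motif TTCCNGGAA, which lies within the STAT motif, was in 3 (10%) against 1.15%, and the letters of HNF4 (CAAAGTCCA) and of the C/EBP palindrome TTGCGCAA, which lies within the C/EBP motif, were in 0 of the 30 against 0.475% and 0.183%. These matches describe letters in a window and do not show binding. Several members are also direct neighbours among the protein-coding genes: Fgg, Fga and Fgb on chromosome 3, C8b and C8a on 4, F7, F10 and Proz on 8, F11 and Klkb1 on 8, and Cfb and C2 on 17.

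At day 2 after TCPOBOP more members were called lower than higher, against day 0, in both genotypes and on both scales, with C9 among the lowest values in each. In KO livers 0 members were called higher and 24 lower on the deposited scale, at a limma adjusted p under 0.05, where 4.2% of all genes tested were called higher and 4.49% lower. After quantile normalization the counts were 0 and 20, against 4.74% and 4.54% of all genes, and all 20 were among the 24. At an unadjusted p under 0.05, 0 members were higher and 25 lower in KO as deposited, and 2 and 23 after quantile normalization. Here and below, counts at this unadjusted threshold have no share of all genes beside them, so they cannot be set against a background. In WT livers 4 members were called higher and 12 lower, against 7.26% and 5.38% of all genes, and after quantile normalization 1 and 25, against 6.74% and 5.94%. Groups without overlap were common among all genes. In KO all day 2 arrays lay above all day 0 arrays for 2 members and below them for 25, against 22.6% and 17.8% of all genes. In WT they did so for 7 and 24 members, against 19.2% and 25.9% of all genes. The median difference of the members was -0.74 in KO and -0.39 in WT on the log2 scale as deposited, beside 0.05 and -0.11 for all genes, and -0.54 and -0.56 after quantile normalization, beside 0.03 and -0.06. Throughout, a difference is between means of log2(signal + 16), ± is limma's standard error (in each genotype n = 3 at day 2, n = 2 at day 0), and adjusted p values are Benjamini-Hochberg adjusted over all 14102 genes.

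**Figure D1:**
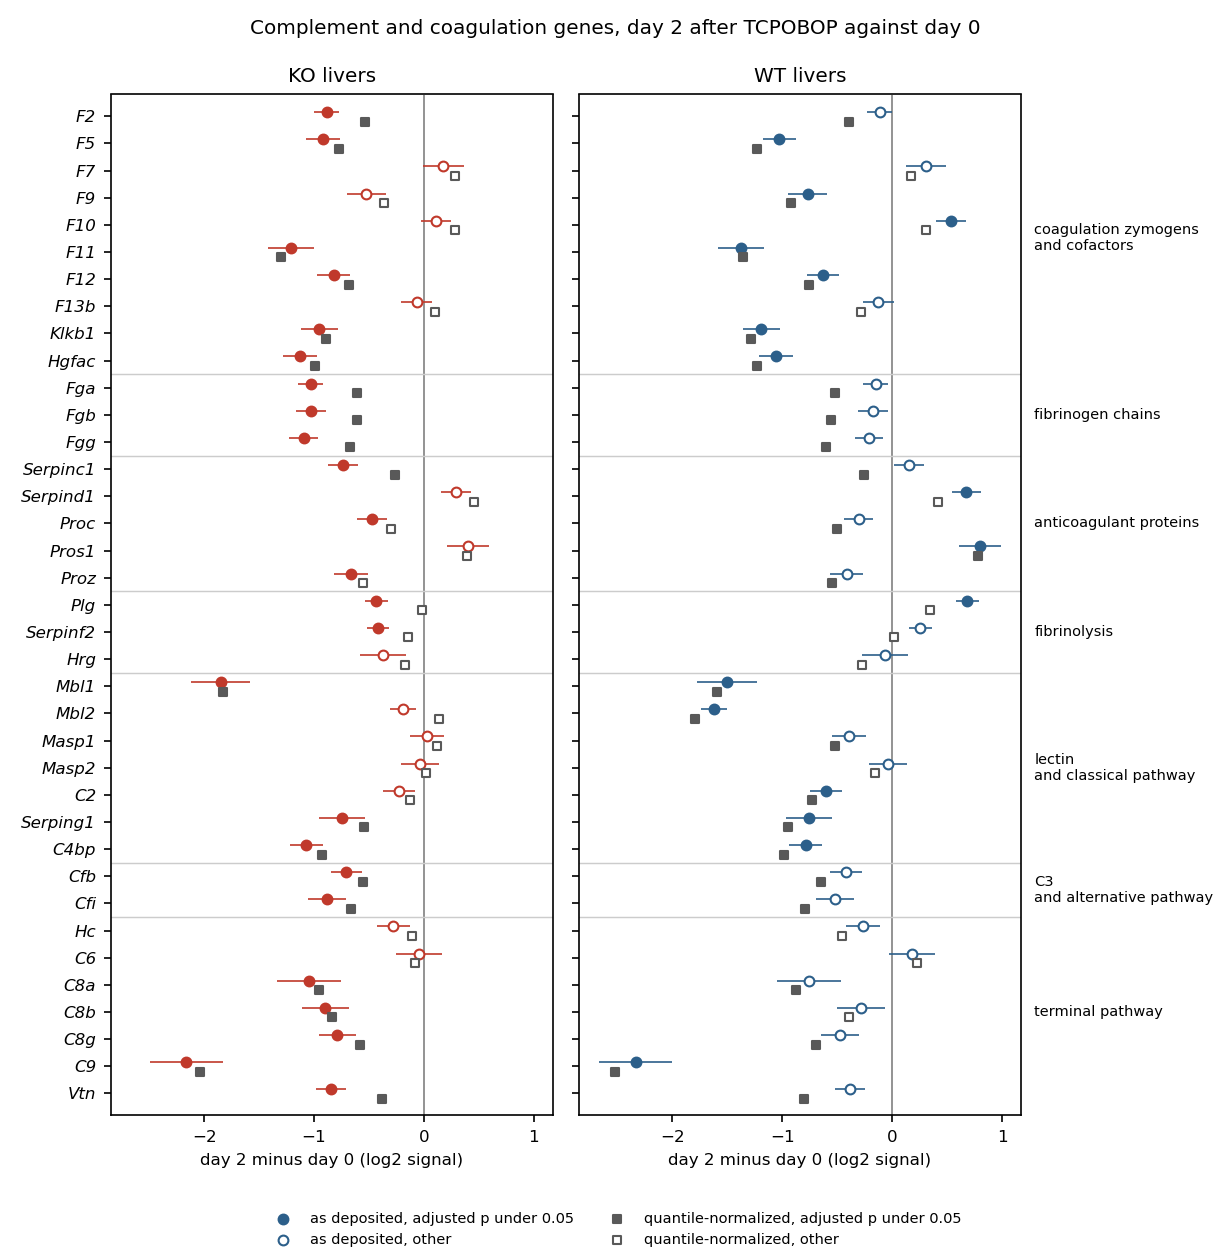
Difference between day 2 and day 0 (log2 signal, horizontal axis) of the 37 measured members, in KO livers at left and WT livers at right, ordered by role; circles with standard error bars are deposited values, squares quantile-normalized ones, and filled symbols have an adjusted p under 0.05. In KO 24 circles and 20 squares are filled to the left of 0; in WT 12 circles are filled to the left and 4 to the right, and 25 squares to the left and 1 to the right.

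Called lower in both genotypes under both scalings were 9 members: F5, F11, F12, Klkb1, Hgfac, Mbl1, Serping1, C4bp and C9. As deposited they make up 9 of the 24 calls in KO and 9 of the 12 in WT. After quantile normalization 19 members were called lower in both genotypes, of 20 in KO and 25 in WT. Without KO day 0 replicate 1, 17 members were called lower in KO, and the 7 lost were Proc, Serpinf2, Serping1, Cfb, C8a, C8b and C8g. Without KO day 2 replicate 3 the count was also 17, with Proc, Proz, Plg, Serpinf2, Serping1, C8a and C8b lost. In WT, leaving out day 0 replicate 1 lowered the counts to 1 higher and 7 lower, with F10, Serpind1, Pros1, F9, F12, C2, Serping1 and C4bp lost. Whichever single array was left out, the calls of F2, F5, F11, F12, Klkb1, Hgfac, Fga, Fgb, Fgg, Serpinc1, Mbl1, C4bp, Cfi, C9 and Vtn were kept in KO, and those of F5, F11, Klkb1, Hgfac, Plg, Mbl1, Mbl2 and C9 in WT. The plot of differences by role shows the squares of the 2 panels lying closer to each other than the circles, most visibly for fibrinogen.

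Among the 10 clotting zymogens and cofactors, 6 were called lower in KO, with the same count after quantile normalization, and 1 was called higher and 6 lower in WT, with 0 and 7 after it. Factor XI (F11), which feeds the intrinsic branch by activating factor IX, read 641.7, 581.8 and 606.6 on KO day 2, against 1390.3 and 1475 on KO day 0. It read 505.0, 539.7 and 851.0 on WT day 2, against 1493 and 1766 on WT day 0. Every day 2 array lay below every day 0 array of its genotype, and the difference was -1.21 ± 0.21, adjusted p 0.00373 in KO and -1.38 ± 0.21, adjusted p 0.00112 in WT. Plasma prekallikrein (Klkb1), the neighbour of F11 that starts contact activation together with factor XII, read 2167, 2048 and 1697 on KO day 2, against 4217 and 3443 on KO day 0. On the WT arrays it read 1366, 1855 and 1756 at day 2, against 3531 and 4042 at day 0. Its groups did not overlap either, with differences of -0.95 ± 0.17, adjusted p 0.00433 in KO and -1.19 ± 0.17, adjusted p 0.000684 in WT.

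Hgfac, the serine protease that activates hepatocyte growth factor, fell to 4418, 3727 and 3604 on KO day 2, against 8227 and 8867 on KO day 0 (-1.13 ± 0.15, adjusted p 0.000824). In WT it fell to 3567, 3250.2 and 4549 at day 2, against 8048 and 7624 at day 0 (-1.06 ± 0.15, adjusted p 0.000807). Factor V (F5), the cofactor of factor X in making thrombin, was called lower in both, at -0.92 ± 0.15 in KO and -1.03 ± 0.15 in WT, and so was factor XII (F12), which starts contact activation, at -0.82 ± 0.15 and -0.63 ± 0.15. Factor IX (F9), whose lack causes haemophilia B, was not called in KO (-0.53 ± 0.18, adjusted p 0.096) and was called lower in WT (-0.77 ± 0.18, adjusted p 0.0149). Its KO day 2 arrays read 5199.7, 4953 and 4618, all below the KO day 0 arrays at 9027 and 5559. Prothrombin (F2), the precursor of thrombin, read 20101, 21475 and 22927 on KO day 2, against 39792 and 39452 on KO day 0. In WT it read 28477, 26348 and 31441 at day 2, against 30734 and 31381 at day 0. The KO groups did not overlap (-0.88 ± 0.11, adjusted p 0.00057) and the WT groups did (-0.11 ± 0.11, adjusted p 0.567), while after quantile normalization both genotypes were called lower (-0.54 in KO and -0.40 in WT).

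Factor X (F10), where the intrinsic and extrinsic branches meet, was the one zymogen called higher. In KO it read 10188, 9773 and 11123 at day 2, against 9705 and 9458 at day 0, a difference that did not pass the test (0.11 ± 0.14, adjusted p 0.697). In WT it read 10436, 9947 and 12896 at day 2, against 7054 and 8248 at day 0, with no overlap, and was called (0.53 ± 0.14, adjusted p 0.0261). After quantile normalization F10 was at 0.28 in KO and 0.31 in WT and was called in neither. Factor VII (F7), the neighbour of F10 that starts the extrinsic branch with tissue factor, did not pass the test (0.18 ± 0.18 in KO and 0.31 ± 0.18 in WT), nor did the carrier subunit of factor XIII (F13b, -0.07 ± 0.14 and -0.13 ± 0.14). The 7 vitamin K dependent members (F2, F7, F9, F10, Proc, Pros1 and Proz), whose proteins are carboxylated to bind calcium, thus did not move as one. In KO 0 were called higher and 3 lower, and in WT 2 higher and 1 lower, against 4.2% and 4.49%, and 7.26% and 5.38%, of all genes. After quantile normalization the counts changed to 0 and 1 in KO and 1 and 4 in WT, against 4.74% and 4.54%, and 6.74% and 5.94%.

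All 3 fibrinogen chains were called lower in KO and none in WT on the deposited scale, and all 3 in both genotypes after quantile normalization. Fgb, the beta chain, read 25776, 24853 and 29330.0 on KO day 2, against 60609.9 and 48609 on KO day 0. In WT it read 35422, 34989 and 40012 at day 2, against 38578 and 44642 at day 0. The KO groups lay far apart, 2.04-fold lower at day 2 (-1.03 ± 0.14, adjusted p 0.000658), and the WT groups overlapped (-0.18 ± 0.14, adjusted p 0.445). Fga, the alpha chain, was at -1.03 ± 0.11, adjusted p 0.000167 in KO and -0.15 ± 0.11, adjusted p 0.43 in WT, and Fgg, the gamma chain, at -1.09 ± 0.13, adjusted p 0.000339 and -0.21 ± 0.13, adjusted p 0.33. After quantile normalization the values of Fga, Fgb and Fgg were -0.61, -0.61 and -0.68 in KO, and -0.52, -0.56 and -0.60 in WT, with adjusted p values between 0.000326 and 0.00276. The chains stayed close to each other: on any of the 12 arrays the log2 difference between any 2 chains stayed within -0.25 and 0.24 of its mean. That range is wider than their deposited differences in WT. Within the KO day 0 pair Fga was brighter on replicate 2, and Fgb and Fgg on replicate 1. At these signals the distance between the genotypes depended on the scaling. The 142 other genes with a mean log2 signal over 14 had a median difference of -0.41 in KO and 0.20 in WT as deposited, and of -0.04 and -0.12 after quantile normalization. The 10 members in that range had medians of -0.86 in KO and -0.13 in WT, and of -0.46 in both after it.

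The 5 anticoagulant proteins split by gene. Antithrombin (Serpinc1), the main inhibitor of thrombin and factor Xa, read 33302, 33812 and 41754 on KO day 2, against 67628 and 53456 on KO day 0 (-0.74 ± 0.13, adjusted p 0.00504). In WT it read 58039.7, 57542 and 57964 at day 2, against 51618 and 52568 at day 0 (0.15 ± 0.13, adjusted p 0.513). The KO arrays did not overlap, and the WT values turned direction with the scaling: after quantile normalization Serpinc1 was called lower in both genotypes (-0.27, adjusted p 0.0495 in KO; -0.26, adjusted p 0.0451 in WT). Heparin cofactor II (Serpind1), another thrombin inhibitor, went the other way. It read 11835, 10502 and 11087 on KO day 2, against 8081 and 10196 on KO day 0, and 12341, 12214 and 14756 on WT day 2, against 8192 and 8152 on WT day 0. All day 2 arrays lay above all day 0 arrays of their genotype, as for 22.6% of all genes in KO and 19.2% in WT. The test did not call KO (0.29 ± 0.14, adjusted p 0.226) and called WT (0.67 ± 0.14, adjusted p 0.00664). After quantile normalization neither was called (0.46, adjusted p 0.0813 in KO; 0.42, adjusted p 0.0922 in WT).

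Protein S (Pros1), the cofactor of activated protein C that also binds C4b-binding protein, was the one member called higher under both scalings, in WT. In KO it read 1379.9, 1285 and 1031 at day 2, against 793.6 and 1068 at day 0, and the groups overlapped (0.40 ± 0.19, adjusted p 0.237). In WT it read 1458, 1359 and 1352 at day 2, against 668.1 and 940.3 at day 0 (0.80 ± 0.19, adjusted p 0.0177; 0.78, adjusted p 0.0203 after quantile normalization). The WT call was lost without day 0 replicate 1, when the difference was 0.55 (adjusted p 0.189), and without day 2 replicate 1 (0.76, adjusted p 0.0509). Protein C (Proc) was called lower in KO (-0.47 ± 0.13, adjusted p 0.0486) and not in WT (-0.30 ± 0.13, adjusted p 0.166), and after quantile normalization not in KO (-0.30, adjusted p 0.0974) and in WT (-0.50, adjusted p 0.00779). Protein Z (Proz), a cofactor for the inhibition of factor Xa, did the same: -0.66 ± 0.15 and called in KO, -0.42 ± 0.15 and not called in WT, with -0.56, adjusted p 0.0522 in KO and -0.55, adjusted p 0.0451 in WT after it.

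Of the fibrinolysis genes, plasminogen (Plg) differed most between the genotypes on the deposited scale. It read 31103, 29191 and 29774 on KO day 2, against 41162 and 39924 on KO day 0, and 48969, 49766 and 52184 on WT day 2, against 33029 and 29795 on WT day 0. The KO arrays were all lower at day 2 (-0.43 ± 0.10, adjusted p 0.0227) and the WT arrays all higher (0.68 ± 0.10, adjusted p 0.00114). After quantile normalization the values were -0.02, adjusted p 0.955 in KO and 0.34, adjusted p 0.0664 in WT, and neither was called. The plasmin inhibitor alpha-2-antiplasmin (Serpinf2) read 14817, 15751 and 16127 on KO day 2, against 21360.5 and 20239 on KO day 0. In WT it read 23287, 24242 and 24343 at day 2, against 20605 and 19562 at day 0. It was called lower in KO (-0.42 ± 0.10, adjusted p 0.0273; -0.15 and not called after quantile normalization) and not called in WT (0.25 ± 0.10, adjusted p 0.139). Histidine-rich glycoprotein (Hrg), which binds plasminogen and heparin, did not pass the test in either genotype (-0.37 ± 0.21 in KO and -0.07 ± 0.21 in WT).

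In the lectin and classical pathways, 3 of 7 members were called lower in KO and 5 in WT, with 3 and 6 after quantile normalization. Mbl2, the gene of mannose-binding lectin C, had the largest difference between the genotypes at day 2 of the 37 members, on both scales. It read 19832, 19953 and 23536 on KO day 2, against 23058 and 24885 on KO day 0, and the groups overlapped (-0.19 ± 0.12, adjusted p 0.391; 0.13, adjusted p 0.524 after quantile normalization). In WT it fell to 6542, 7039.5 and 6688 at day 2, against 21872 and 19803 at day 0, 3.08-fold lower (-1.62 ± 0.12, adjusted p 7.02e-06; -1.80, adjusted p 2.76e-06 after quantile normalization). The WT day 2 arrays lay within a narrow range, and each was below every other array in the series. Mbl1, the gene of mannose-binding lectin A, whose protein also binds sugars, fell in both. It read 1008, 1144 and 1827 on KO day 2, against 5490.3 and 3957 on KO day 0, and 1855, 1157 and 1930.4 on WT day 2, against 4941 and 4267 on WT day 0. No day 2 array reached a day 0 array, and the difference was -1.85 ± 0.27, adjusted p 0.00138 in KO and -1.51 ± 0.27, adjusted p 0.00341 in WT.

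**Figure D2:**
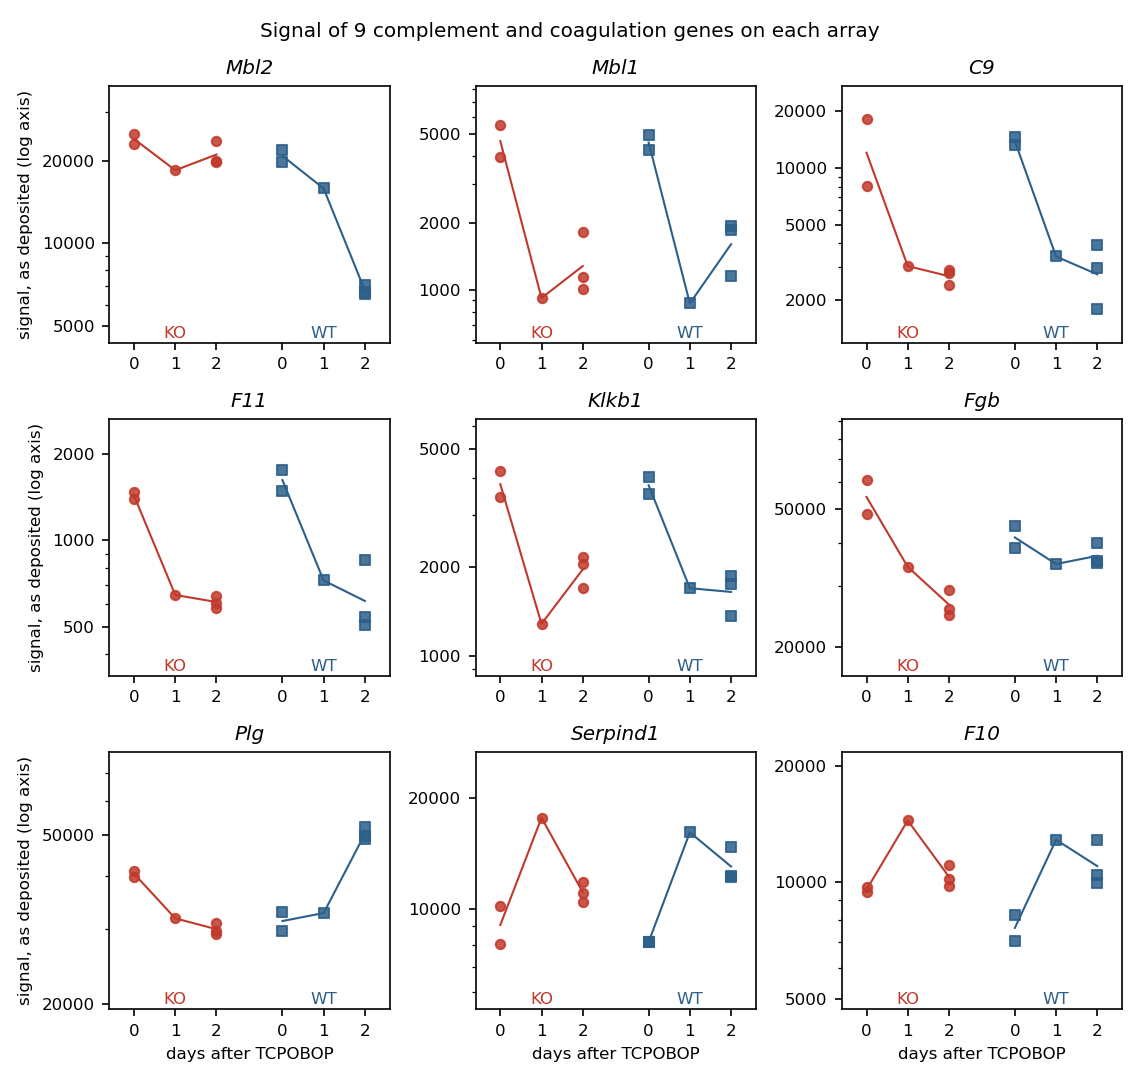
Deposited signal (log axis) of 9 members on each array against days after TCPOBOP, KO arrays as circles at left and WT arrays as squares at right in each panel; lines join group means of the log2 values, and day 1 is 1 pooled array per genotype. Mbl2 reads 19832 to 23536 on KO day 2 and 6542 to 7040 on WT day 2, while Mbl1, C9, F11 and Klkb1 are lower after day 0 in both genotypes.

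The proteases of the lectin pathway did not pass the test as deposited (Masp1 at 0.03 ± 0.16 in KO and -0.40 ± 0.16 in WT, Masp2 at -0.04 ± 0.17 and -0.04 ± 0.17). After quantile normalization Masp1 was called lower in WT (-0.52, adjusted p 0.0269). C2, the protease that C4b holds in the C3 convertase, was not called in KO (-0.23 ± 0.15, adjusted p 0.395) and was called lower in WT (-0.60 ± 0.15, adjusted p 0.0195). Both inhibitors were called lower in both genotypes: C1 inhibitor (Serping1), which also blocks kallikrein and factor XII, at -0.75 ± 0.21, adjusted p 0.0473 in KO and -0.76 ± 0.21, adjusted p 0.0344 in WT, and C4b-binding protein (C4bp) at -1.07 ± 0.15, adjusted p 0.00094 and -0.79 ± 0.15, adjusted p 0.00451. C4bp read 4830.1, 4183 and 3495 on KO day 2, against 8276 and 9137 on KO day 0, and 5411, 4599.6 and 4565 on WT day 2, against 8685 and 8095 on WT day 0, with no overlap in either genotype. The Serping1 calls were the less secure. The KO day 0 pair lay far apart, at 21544 and 11706, and the KO call was lost without its replicate 1 (-0.31, adjusted p 0.265) and without any one of the KO day 2 arrays (adjusted p 0.093 to 0.126). The WT call was lost without any one of the 5 WT arrays compared (adjusted p 0.0583 to 0.185).

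The 2 measured genes of the alternative pathway, factor B (Cfb), its protease, and factor I (Cfi), which cuts C3b and C4b, were called lower in KO (-0.70 ± 0.14, adjusted p 0.0102 and -0.88 ± 0.17, adjusted p 0.00798). In WT they were at -0.42 ± 0.14, adjusted p 0.0786 and -0.52 ± 0.17, adjusted p 0.0704, not called, and were called after quantile normalization (-0.65 and -0.79). Of the 7 terminal pathway genes, 5 were called lower in KO under both scalings, and 1 in WT as deposited and 4 after quantile normalization. C9, which forms the ring of the membrane pore, had the lowest difference of the 37 members in both genotypes. It read 2878, 2788 and 2405 on KO day 2, against 18144 and 8036 on KO day 0, and 2951, 1791 and 3905 on WT day 2, against 13202 and 14649.9 on WT day 0. The groups did not overlap, and the difference was -2.16 ± 0.33, adjusted p 0.00194 in KO (4.48-fold lower) and -2.33 ± 0.33, adjusted p 0.000761 in WT (5.04-fold lower), with -2.04 and -2.52 after quantile normalization.

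The 3 chains of C8, which inserts the complex into the membrane, were called lower in KO: C8a at -1.05 ± 0.29, C8b at -0.90 ± 0.22 and C8g at -0.79 ± 0.17. C8a read 2556, 2853 and 1906 on KO day 2, against 7264 and 3416 on KO day 0, and C8b read 1740.4, 2042 and 1675 on KO day 2, against 4619.8 and 2481 on KO day 0. Replicate 1 of KO day 0 was the brighter of the pair for all 3 chains, and no chain was called without it. Then C8a was at -0.50 (adjusted p 0.31), C8b at -0.45 (0.142) and C8g at -0.53 (0.0903). The calls of C8a and C8b were also lost without other single arrays of KO day 2. In WT none of the 3 was called as deposited (-0.76 ± 0.29, -0.29 ± 0.22 and -0.47 ± 0.17), and C8a and C8g were called lower after quantile normalization (-0.88 and -0.69). Vitronectin (Vtn), which keeps the complex out of membranes, was called lower in KO (-0.85 ± 0.13, adjusted p 0.00224; -0.39 after quantile normalization) and in WT after quantile normalization (-0.39 ± 0.13, adjusted p 0.0828 as deposited; -0.80, adjusted p 0.000145 after it). C5 (Hc), whose cleavage starts the terminal pathway, and C6 passed the test in neither genotype, with Hc at -0.28 ± 0.15 in KO and -0.27 ± 0.15 in WT and C6 at -0.05 ± 0.21 and 0.18 ± 0.21.

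Between the genotypes at day 2, Mbl2 was the member that differed under both scalings, and the other deposited calls were of bright genes that lost their call after quantile normalization. On the deposited scale 1 member was called higher in KO and 7 lower, where 3.99% and 5.23% of all genes were called, and after quantile normalization 3 were higher and 0 lower, against 3.52% and 3.86%. At an unadjusted p under 0.05, 1 member was higher and 11 lower as deposited, and 8 were higher and 2 lower after quantile normalization. No share of all genes stands beside these unadjusted counts, so no reading of the members is drawn from them. The members' median was -0.15 as deposited, beside 0.09 for all genes, and 0.05 after quantile normalization, beside 0.05. The count of lower members was 3 without KO day 2 replicate 1 or 2 or without WT day 2 replicate 1 or 3, when F2 and the 3 fibrinogen chains were lost. These comparisons share the day 2 arrays with those above. Mbl2 was 3.11-fold higher in KO (1.64 ± 0.11, adjusted p 1.88e-05; 1.96, adjusted p 5.25e-06 after quantile normalization).

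The 7 deposited calls of lower genes were Plg (-0.74 ± 0.09, adjusted p 0.00187), Serpinc1 (-0.68 ± 0.12, adjusted p 0.00764), Serpinf2 (-0.62 ± 0.09, adjusted p 0.00418), Fgb (-0.47 ± 0.12, adjusted p 0.0343), Fgg (-0.46 ± 0.12, adjusted p 0.033), Fga (-0.46 ± 0.10, adjusted p 0.0192) and F2 (-0.42 ± 0.10, adjusted p 0.0282). After quantile normalization Plg was at -0.23, Serpinc1 at -0.15, Serpinf2 at -0.26, Fgb at -0.00, Fgg at 0.04, Fga at 0.02 and F2 at -0.01. Fga and Fgg thus turned direction there, and F2 and Fgb as well after cyclic loess normalization (0.07 and 0.06). The 142 other genes over a mean log2 signal of 14 had a median of -0.40 as deposited and 0.08 after quantile normalization, and the 10 members in that range -0.46 and -0.01. Mbl2 has a mean log2 signal between 12 and 14, where 635 other genes had a median of -0.21 and 0.03. Called after quantile normalization alone were Hc (7939.6, 9442 and 8349 on KO day 2, against 7632, 7351 and 6043 on WT day 2; 0.29 ± 0.14, adjusted p 0.182 as deposited and 0.54, adjusted p 0.0257 after it) and F12 (0.28 ± 0.13, adjusted p 0.192 as deposited and 0.48, adjusted p 0.0488 after it). The Hc arrays did not overlap between the genotypes, and those of F12 did. At day 2 all KO arrays lay above all WT arrays for 20.1% of all genes and below them for 16.1%.

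**Figure D3:**
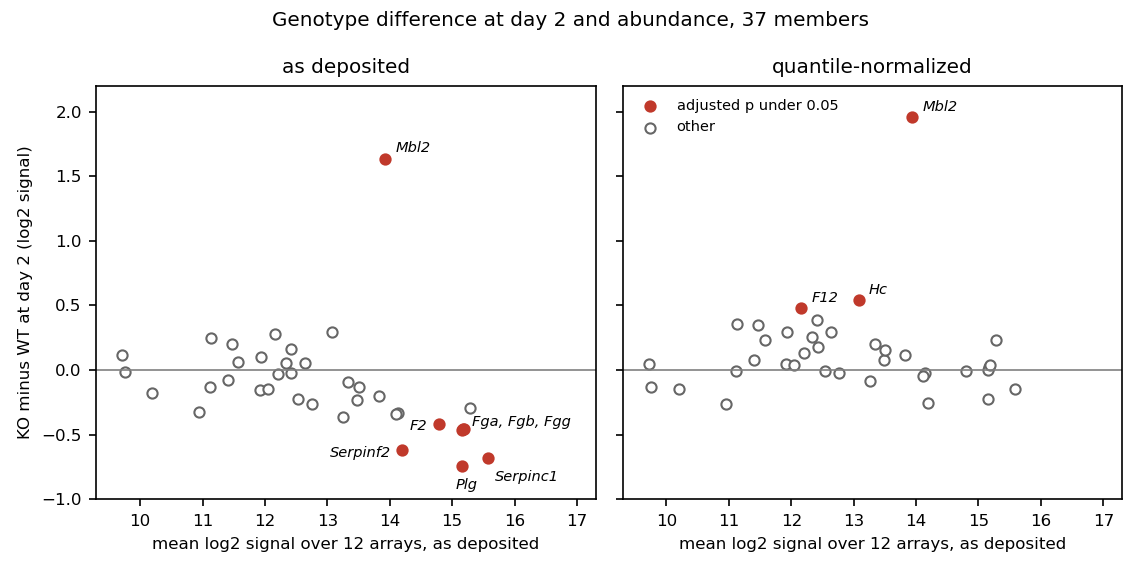
KO minus WT difference at day 2 (log2 signal, vertical axis) of the 37 members against their mean log2 signal over 12 arrays (horizontal axis), as deposited at left and quantile-normalized at right; filled points have an adjusted p under 0.05. Mbl2 stands at 1.64 and 1.96, and the 7 filled points below 0 at left lie at the bright end and are not filled at right.

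The change from day 0 to day 2 was tested for a difference between the genotypes. As deposited, 1 member had a higher change in KO than in WT and 7 a lower one, against 1.08% and 2.06% of all genes. After quantile normalization the counts were 1 and 0, against 0.908% and 1.13%. At an unadjusted p under 0.05, 1 member was higher and 8 lower as deposited, and 7 were higher and 1 lower after quantile normalization. Mbl2 was the one called higher in both, at 1.43 ± 0.17, adjusted p 0.0068 as deposited and 1.93, adjusted p 0.000927 after it. The 7 lower ones were the same genes as between the genotypes at day 2, from Plg (-1.11 ± 0.15, adjusted p 0.0068; -0.36, adjusted p 0.235 after quantile normalization) to Serpinf2 (-0.67 ± 0.15, adjusted p 0.0346; -0.16, adjusted p 0.52 after it). The count of lower members was 1 (Plg) without KO day 2 replicate 2 and without either WT day 0 array. The 142 other genes over a mean log2 signal of 14 had a median of -0.54 in this test as deposited and 0.11 after quantile normalization. For the 9 members called lower in both genotypes under both scalings, this test called none. C9 was at 0.17 ± 0.47, adjusted p 0.864, Mbl1 at -0.34 ± 0.38, adjusted p 0.637 and F11 at 0.17 ± 0.30, adjusted p 0.781, and these standard errors leave room for differences of either sign.

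At day 0 no member was called between the genotypes on either scale, where 0.17% of all genes were called as deposited and 0.163% after quantile normalization. At an unadjusted p under 0.05, 6 members were higher in KO and 0 lower as deposited (Fga, Fgb, Fgg, F2, F12 and Plg), and 1 and 2 after quantile normalization. These counts too have no share of all genes beside them. Fga read 53499.9 and 58234 on KO day 0, against 41507 and 41848 on WT day 0 (0.42 ± 0.12, adjusted p 0.326; 0.11 after quantile normalization). Plg read 41162 and 39924 on KO day 0, against 33029 and 29795 on WT day 0 (0.37 ± 0.11, adjusted p 0.371; 0.13 after it). Neither pair of groups overlapped, and the brightest signal was also higher on the KO day 0 arrays than on the WT day 0 arrays. The cre control was higher there too, but the part of the Cre virus in it was not tested. At day 0 both KO arrays lay above both WT arrays for 16.6% of all genes and below them for 19%. Mbl2 stood at 0.20 ± 0.13, adjusted p 0.734 as deposited and 0.03 after quantile normalization.

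At day 1 each genotype has 1 pooled array, so the values have no replicate and no test. In the KO pool 30 of 37 members were below the KO day 0 mean, with a median of -0.48 (all genes -0.05; members -0.54 after quantile normalization), and in the WT pool 27 of 37 were below the WT day 0 mean, with a median of -0.39 (all genes -0.07; members -0.60 after quantile normalization). At least 2-fold lower were 4 members in KO and 5 in WT, where 6.74% and 6.98% of all genes were, and 0 members were at least 2-fold higher in either, against 6.11% and 6.35%. Mbl1 was at -2.32 in KO and -2.38 in WT, C9 at -1.99 and -2.02, Klkb1 at -1.56 and -1.15, and F11 at -1.13 and -1.15, and the fifth in WT was Serping1, at 8761 in the pool against 18176 and 16960.0 on the day 0 arrays. The Mbl1 signal was 921.7 in the KO pool and 872.2 in the WT pool, and these pools were the lowest arrays of each genotype.

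The KO pool lay within 0.5 of the WT pool on the log2 scale for 35 of 37 members, as it did for 73.4% of all genes, and the extremes were C6 at -0.52 and F7 at 0.71. Mbl2 was at 18447 in the KO pool and 15839.7 in the WT pool (-0.38 and -0.39 relative to their day 0 means). The KO and WT values of Mbl2 thus lay close at day 1 and far apart at day 2. Serpind1, F10 and Pros1 were above day 0 in both pools, Serpind1 by 0.96 in KO and 0.98 in WT, F10 by 0.59 and 0.76, and Pros1 by 0.67 and 0.88. Serpind1 read 17661 in the KO pool and 16131 in the WT pool, above every array of day 0 and day 2. F7 was at 5965 in the KO pool and 3636 in the WT pool, 0.84 and 0.11 above their day 0 means.

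**Figure D4:**
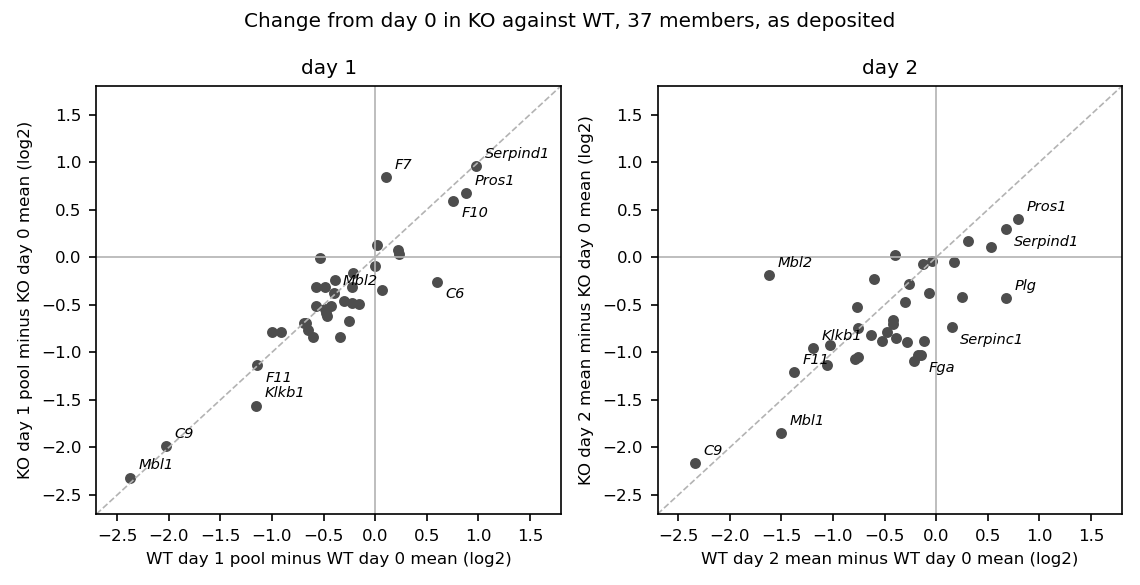
Difference from the day 0 mean (log2 signal, as deposited) in KO (vertical axis) against WT (horizontal axis) for the 37 members, at day 1 at left (1 pool per genotype) and at day 2 at right; the dashed line marks equal values. Mbl1 and C9 stand at the lower left on both days, and Mbl2 lies near the line at day 1 and off it at day 2 (-0.19 in KO and -1.62 in WT).

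Other probe sets of the same genes gave a check on 7 members (F5, F10, Proz, Masp1, Masp2, C2 and Vtn), which have 12 more between them. The second probe set of F5 was called lower in both genotypes (-0.72 in KO and -0.54 in WT), and that of Vtn in KO (-0.96), as for the brighter ones. Those of F10 were higher than the brighter one showed: in WT by 2.14 (adjusted p 0.0134) and 1.22 (0.00522), and in KO by 0.43 (0.673) and 0.88 (0.0407). The probe sets of C2 differed. One was called lower in WT (-0.62, adjusted p 0.0348) and called higher in KO than in WT at day 2 (0.59, adjusted p 0.0363), where the brightest one was at 0.10 ± 0.13, adjusted p 0.642. The third was not called in WT (-0.29, adjusted p 0.219) and went the other way between the genotypes at day 2, not called (-0.32, adjusted p 0.136). The second Proz probe set was at -0.64 in KO (adjusted p 0.0676) and -0.08 in WT (0.844), and the 4 of Masp1 and 1 of Masp2 were called in neither genotype. Mbl2, Mbl1, C9, F11, Plg and the fibrinogen chains have 1 probe set each.

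Other genes of the pathways were counted at day 2 against day 0 in the same way. Of all genes, 4.2% were called higher and 4.49% lower in KO as deposited, and 7.26% and 5.38% in WT. After quantile normalization these shares were 4.74% and 4.54%, and 6.74% and 5.94%. The other complement genes had a median of -0.37 in KO and -0.58 in WT as deposited, beside 0.05 and -0.11 for all genes. Of 19 other complement genes tested, 0 were called higher and 5 lower in KO, and 1 higher and 6 lower in WT, with 1 and 5 in KO and 1 and 8 in WT after quantile normalization. The C1s protease gene C1s1, which starts the classical pathway with C1r, was lower in both (-1.19 ± 0.17 in KO, adjusted p 0.00118; -1.12 ± 0.17 in WT, adjusted p 0.00112), and C1ra in KO (-0.81 ± 0.17, adjusted p 0.00944). C1qb, a chain of C1q made by macrophages, fell further in KO (-1.63 ± 0.15) than in WT (-0.58 ± 0.15), a difference called on both scales (-1.05 ± 0.21, adjusted p 0.0286; -1.17, adjusted p 0.028 after quantile normalization). Colec10, a collectin of the lectin pathway that the liver makes, was lower in WT (-1.22 ± 0.25, adjusted p 0.00676) and 1.00 ± 0.22 higher in KO than in WT at day 2 (adjusted p 0.0189). The receptor of C5a, C5ar1, was lower in WT (-1.06 ± 0.20) and likewise higher in KO at day 2 (1.12 ± 0.18, adjusted p 0.00534). Clusterin (Clu), an inhibitor of the pore, was not called in KO (0.37 ± 0.17, adjusted p 0.224) and was called higher in WT (1.27 ± 0.17, adjusted p 0.000462) as deposited. After quantile normalization it was called higher in both (0.80, adjusted p 0.000281 in KO; 0.83, adjusted p 0.000151 in WT).

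Of 23 other coagulation and fibrinolysis genes tested, 2 were called higher and 4 lower in KO, and 3 higher and 2 lower in WT, with 3 and 3 in KO and 1 and 5 in WT after quantile normalization. As deposited, their median lay near that of all genes, at 0.08 in KO and -0.15 in WT, beside 0.05 and -0.11. After quantile normalization it was 0.02 in KO and -0.22 in WT, beside 0.03 and -0.06 for all genes. The 5 called lower in WT on that scale stand against 5.94% of all genes. High-molecular-weight kininogen (Kng1), the partner of prekallikrein and factor XI in contact activation, was lower in both (-1.36 ± 0.12 in KO, adjusted p 3.52e-05; -0.94 ± 0.12 in WT, adjusted p 0.000279). So was Mug1, a murinoglobulin that traps proteases (-1.19 ± 0.19 in KO and -0.96 ± 0.19 in WT). Lman1, which carries factors V and VIII out of the endoplasmic reticulum, was called higher in both as deposited (0.48 ± 0.11 in KO, adjusted p 0.019; 0.42 ± 0.11 in WT, adjusted p 0.027), and after quantile normalization in KO (0.65, adjusted p 0.00175) and not in WT (0.25, adjusted p 0.127). Vkorc1, which recycles vitamin K, was called lower in KO (-0.70 ± 0.17, adjusted p 0.022) and not in WT (-0.31 ± 0.17, adjusted p 0.268) as deposited. After quantile normalization it was called lower in both (-0.51, adjusted p 0.0183 in KO; -0.53, adjusted p 0.0119 in WT). S100a10, which together with annexin A2 holds plasminogen on cell surfaces, rose by 0.65 ± 0.16 in KO (adjusted p 0.0288) and by 2.52 ± 0.16 in WT (adjusted p 3.47e-06). Its change differed between the genotypes on both scales (-1.87 ± 0.23, adjusted p 0.0068; -1.61, adjusted p 0.0158 after quantile normalization). Between the genotypes at day 2, 2 of the other complement genes were called higher and 4 lower in KO, and 1 and 2 of the other coagulation genes, with 2 and 3, and 2 and 1, after quantile normalization. The shares of all genes in this comparison were 3.99% higher and 5.23% lower as deposited, and 3.52% and 3.86% after quantile normalization.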

How the data were processed

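Liver RNA was measured on 12 single-colour Affymetrix arrays. The deposited values are signal intensities that the authors made with MAS5, per the submitters' processing notes (version not stated there). On each array their mean, without the lowest and highest 2%, was 499.9, so the arrays had been scaled to 1 target. No aligner or genome build enters such values. The number of arrays limits the precision.

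Intensities were taken as log2(value + 16). The platform annotation names 1 gene for 34945 probe sets, several for 932 and none for 9160, with 64 controls, and only those with 1 gene were used. Probe sets above their own array's median on at least 2 arrays were kept, and the one with the highest mean represented a gene, which left 14102 of 18193 genes. All 37 measured members passed this filter. Cpb2 and C3 have no probe set of their own in the annotation used.

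Group means of the 6 groups were fitted with limma 3.58.1 in R 4.3.3 (eBayes, trend and robust options on, 6 residual degrees of freedom). Tests were two-sided, p values were Benjamini-Hochberg adjusted across the genes, and a call needed an adjusted p under 0.05. The 5 contrasts were day 2 minus day 0 within KO and within WT, KO minus WT on each of these days, and the KO change minus the WT change. The fit was tested on simulated data. Day 1 pools were not tested.

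The members and all lists (roles, vitamin K dependent members, other complement genes, other coagulation and fibrinolysis genes, regulators, acute phase genes and cell type markers) were chosen with earlier results of these data known. All members could be named; of other lists, up to 6 called genes with the largest differences per comparison, of which a subset is given. Alternatives were quantile, cyclic loess and median normalization, a pseudocount of 64, no filter, the mean of a gene's probe sets, eBayes with those options off, fits of the compared arrays alone, a replicate block, and leaving out each array. Promoter windows were RefSeq's (GRCm38.p6). Proc, Plg, Masp1, C2, Serping1, Cfb and Cfi have no window there. Figures were drawn with Python 3.11.15 and matplotlib 3.10.9.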

Additional observations from a re-analysis of the deposited data

Results flagged for a closer look

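In 8 members the change from day 0 to day 2 differed between KO and WT by the test of that difference on the deposited scale. Values are the KO change minus the WT change in log2 units, ± limma's standard error, with the adjusted p value. Mbl2 was at 1.43 ± 0.17 (0.0068), and at 1.93 after quantile normalization (0.000927). Plg was at -1.11 ± 0.15 (0.0068), and at -0.36 (0.235) after it. Serpinc1 was at -0.89 ± 0.19 (0.0315), and at -0.01 (0.98) after it. Fga, Fgb and Fgg were at -0.88 ± 0.16 (0.0198), -0.85 ± 0.19 (0.0379) and -0.88 ± 0.19 (0.031), and at -0.09, -0.05 and -0.07 after it. F2 was at -0.77 ± 0.16 (0.0307), and at -0.14 (0.537) after it. Serpinf2 was at -0.67 ± 0.15 (0.0346), and at -0.16 (0.52) after it. No group has more than 3 arrays, so no single array was tested for lying apart from its group.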

How the results depend on the processing

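Of the members called as deposited, 13 of 24 in KO, 7 of 16 in WT, 1 of 8 between the genotypes at day 2 and 1 of 8 for the difference between changes kept direction and call under every alternative run; Mbl2 was the 1 in the last 2. Members called lower in KO (24) numbered 15 with eBayes without trend and robust and 15 with only the arrays compared. Members called higher in WT (4) numbered 1 after quantile and 1 after loess normalization and 2 without trend and robust, and lower (12) 25 and 25 after these normalizations. Between the genotypes at day 2, members higher (1) numbered 3 and 3 after them, and lower (7) 0, 0 and 3 without trend and robust. For the difference between changes, members lower (7) numbered 0, 0 and 1. All genes called in KO (1225) numbered 801 with only the arrays compared. At day 2 genes called between the genotypes (1300) numbered 748 without trend and robust. At day 0 genes called (24) numbered 9 without the filter, 0 without trend and robust, 0 with only the arrays compared and 8 with the replicate block. For the difference between changes genes called (444) numbered 287 after quantile normalization, 275 without the filter, 76 without trend and robust and 286 with the replicate block. Reversed were Serpinc1 in WT (-0.26 after quantile and -0.30 after loess normalization) and, between the genotypes at day 2, Fga (0.022) and Fgg (0.036) after quantile normalization and F2 (0.073), Fga (0.070), Fgb (0.060) and Fgg (0.071) after loess. Leaving out 1 array gave 777 to 1253 genes and 17 to 24 members lower in KO, 880 to 1458 genes, 1 to 4 members higher and 7 to 11 lower in WT, 408 to 979 genes and 3 to 7 members lower between the genotypes at day 2, 7 to 134 genes at day 0, and 57 to 698 genes, 1 to 2 members higher and 1 to 10 lower for the difference between changes. The cause was not tested. A day 0 array left alone by this takes its spread from the remaining groups. Replicate numbers did not pair the arrays (correlations of same-numbered deviations -0.0182 to 0.0345), and the replicate block changed no other count by over 1.5 times. With 2 or 3 arrays a group, small differences could not be detected, and at the bright end the scaling decided genotype differences.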

Other observations

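Acute phase genes, which the liver raises or lowers in inflammation together with fibrinogen and several complement genes, did not move as one. Of 21 tested, 5 were called higher and 7 lower in KO at day 2 against day 0, and 7 higher and 4 lower in WT, where 4.2% and 4.49% of all genes were called in KO and 7.26% and 5.38% in WT. After quantile normalization the counts were 6 and 6 in KO and 5 and 5 in WT, against 4.74% and 4.54%, and 6.74% and 5.94%, of all genes. The orosomucoid genes Orm2 and Orm3 rose in both genotypes, Orm2 by 3.76 ± 0.29 in KO and 2.75 ± 0.29 in WT and Orm3 by 4.17 ± 0.19 in KO and 2.74 ± 0.19 in WT (log2, limma, n = 3 arrays at day 2 and 2 at day 0), as near-identical copies whose probes may not tell them apart. Lcn2, an iron-binding lipocalin, rose by 1.48 ± 0.32 in KO and 2.11 ± 0.32 in WT. Apcs, the serum amyloid P gene, rose by 0.97 ± 0.15 in KO and 0.88 ± 0.15 in WT. Serpina3n (-2.45 ± 0.23 in KO and -1.93 ± 0.23 in WT), Lrg1 (-2.32 ± 0.21 and -2.20 ± 0.21) and Itih3 (-2.05 ± 0.19 and -1.44 ± 0.19) fell in both. These 7 genes were called in both genotypes after quantile normalization too. Between the genotypes at day 2, 0 were called higher in KO and 6 lower as deposited, with a median difference of -0.46. After quantile normalization 3 were called higher and 4 lower, with a median of -0.17. The 4 were called lower on both scales: Mt1 (-2.30 as deposited and -2.21 after it), Mt2 (-1.84 and -1.72), Lcn2 (-1.37 and -1.43) and Saa3 (-0.72 and -0.80). The lower calls of Hp and Hpx and the higher calls of Orm2, Apcs and Crp depended on the scaling. Of all genes, 3.99% and 5.23% were called as deposited and 3.52% and 3.86% after it. At day 0, Orm3 was called lower in KO than in WT (-1.74 ± 0.21, adjusted p 0.0117).

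Of 15 tested regulators of hepatic plasma protein genes, 0 were called higher and 3 lower in KO at day 2 against day 0, and 0 and 2 in WT, with the same counts after quantile normalization. Of all genes, 4.2% and 4.49% were called in KO and 7.26% and 5.38% in WT as deposited. After quantile normalization these shares were 4.74% and 4.54%, and 6.74% and 5.94%. Cebpa, the gene of C/EBP alpha, was at -0.89 ± 0.15 in KO (adjusted p 0.00349) and -0.97 ± 0.15 in WT (0.00135). Nr1i3, the gene of CAR, was at -0.63 ± 0.16 in KO (0.0281) and -0.70 ± 0.16 in WT (0.0119). Foxa3, a pioneer factor of hepatocyte genes, was called in KO (-0.93 ± 0.20, adjusted p 0.0147) and not in WT. The test of the difference between changes called 0 of the 15 regulators on either scale, so no genotype difference in the change was shown for Foxa3. Il6st, the shared signal chain of the interleukin 6 receptor, was lower in KO than in WT at day 2 (-0.61 ± 0.16, adjusted p 0.0391), a call lost after quantile normalization (-0.57, adjusted p 0.0634).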
